A study of Danio rerio with 2 samples.

Results

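Genes of the liver's redox defence and of its control by the transcription factor Nrf2 were compared between wild-type and ambp knockout zebrafish (Danio rerio) on a high-fat diet. The named genes were superoxide dismutases, glutathione peroxidases, peroxiredoxins, thioredoxins and their partners, enzymes of glutathione synthesis, the quinone reductase nqo1, and the control genes of the Nrf2, Keap1 and Bach1 families. They were found by Ensembl identifier, taking a listed symbol or its a or b copy. The 36 listed names led to 40 genes of the 25939 in the table.

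The wild-type group, labelled WT, and the knockout group, labelled ambp ko, each had 1 liver library, and both received the high-fat diet, so no library without that diet enters the comparison. The gene ambp encodes the precursor of alpha-1-microglobulin, a heme-binding and reducing plasma protein, and of bikunin, a protease inhibitor subunit. Strain, allele, sex, age and the number of fish behind each library are not given in the sources used here. With 1 library per genotype the differences cannot be checked against replicates, p-values are not possible, and genotype, fish and library cannot be told apart. All intervals are 95% intervals that cover counting error only.

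Cells clear superoxide in steps: superoxide dismutases turn it to hydrogen peroxide, and glutathione peroxidases, peroxiredoxins and catalase remove the peroxide. Glutathione and thioredoxin supply the electrons, and are themselves reduced again at the expense of NADPH. Keap1 holds the transcription factor Nrf2 for degradation until oxidants or electrophiles modify it, after which Nrf2 drives many of these enzymes, while Bach1 is a heme-sensitive repressor at the same DNA elements. Zebrafish keep duplicated copies of several of these genes, so that Nrf2, Keap1 and Bach1 each come as an a and a b gene.

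Some identifiers did not carry an exact copy letter. The gene named NFE2L2 (ENSDARG00000042824) is called nfe2l2a here, since RefSeq lists nfe2l2 as an older name of nfe2l2a, and BACH1 (ENSDARG00000002196) is called bach1b on the same ground. The gene named KEAP1 (ENSDARG00000074634) is keap1b in the deposited table, and the gene named GPX4 (ENSDARG00000076836) is called gpx4b as the copy that is not gpx4a. Pairs that share the names sod3, prdx1, txnip or txnrd2 are told apart by identifier. No identifier carried the name prdx2. RefSeq gives prdx1 as an older name of prdx2, so either prdx1 gene may be the one called prdx2 elsewhere. Near-identical copies can share reads, so the values within such pairs are uncertain.

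Estimated reads per library came to 15659846 for wild type and 18357830 for the knockout. Levels are CPM, counts scaled to a common library size with TMM factors, and 1 read was worth 0.0697 CPM in wild type against 0.0499 CPM in the knockout. The targeted gene ambp had 3506 CPM in wild type against 154 CPM in the knockout. All 12 hepatocyte markers were measured, and they took 19.9% of wild-type and 22.0% of knockout reads, so their share of reads was higher in the knockout. On the TMM scale the direction flipped, with summed levels of 216729 CPM in wild type against 201496 CPM in the knockout. Markers of other cells differed between the libraries. Beside the counts below, 5.40% of all 11634 measured genes were at least 2-fold higher and 6.40% lower, and 49.8% lay above 0 in log2 ratio. Macrophage markers summed to 392 CPM in wild type against 519 CPM in the knockout, with 7 of 17 measured genes at least 2-fold higher and none lower, and with timd4 and csf1rb at 0 reads in both. Neutrophil markers summed to 42.7 and 88.8 CPM, with 2 of 6 measured genes below 0 in log2 ratio and 2 at least 2-fold higher. These were the gene named epx by identifier and Mpo in the deposited table (ENSDARG00000019521), at 1 and 556 reads, and the lysozyme gene lyz, at 4 and 94 reads; csf3r had 0 and 1 reads. Exocrine pancreas markers summed to 76.5 and 559 CPM, with 15 of 18 higher. Erythroid markers summed to 518 and 320 CPM, with 8 of 9 measured genes below 0 in log2 ratio and none past 2-fold. Endothelial markers summed to 84.3 and 90.6 CPM. Stellate and fibroblast markers summed to 36.5 and 37.3 CPM, with 1 of 8 higher and 5 below 0. Biliary markers summed to 2325 and 2753 CPM, with 2 of 9 higher, 5 below 0 and a median log2 ratio of -0.018. The biliary sum was higher through krt18a.1, at 491 and 1065 CPM, while krt8, at 1094 and 1081 CPM, and anxa4, at 514 and 371 CPM, were not higher. In such bulk libraries fewer cells of a type and less RNA per cell cannot be told apart.

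The comparison asks how expression of the redox defence genes differed between the genotypes. Of the 40 genes, 33 reached 1 CPM in at least 1 library and count as measured. By a size rule of 2-fold on the log2 ratio of knockout over wild type, with 1 CPM added to both levels, 4 of the 33 were higher in the knockout, none was lower and 29 lay between. Among all 11634 measured genes 5.40% were higher and 6.40% lower by this rule. The 4 were nfe2l2a, keap1b, bach1a and gpx1b, that is 3 control genes and 1 peroxidase. Only nfe2l2a had at least 100 reads in a library, and bach1a and gpx1b reached 1 CPM in the knockout only. Among genes at 10 CPM or more in a library 1 of 23 members was higher and none lower, beside 4.98% and 9.51% of all such genes. With library totals in place of TMM 6 members were higher and none lower, beside 9.12% and 4.13% of all measured genes.

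**Figure D1:**
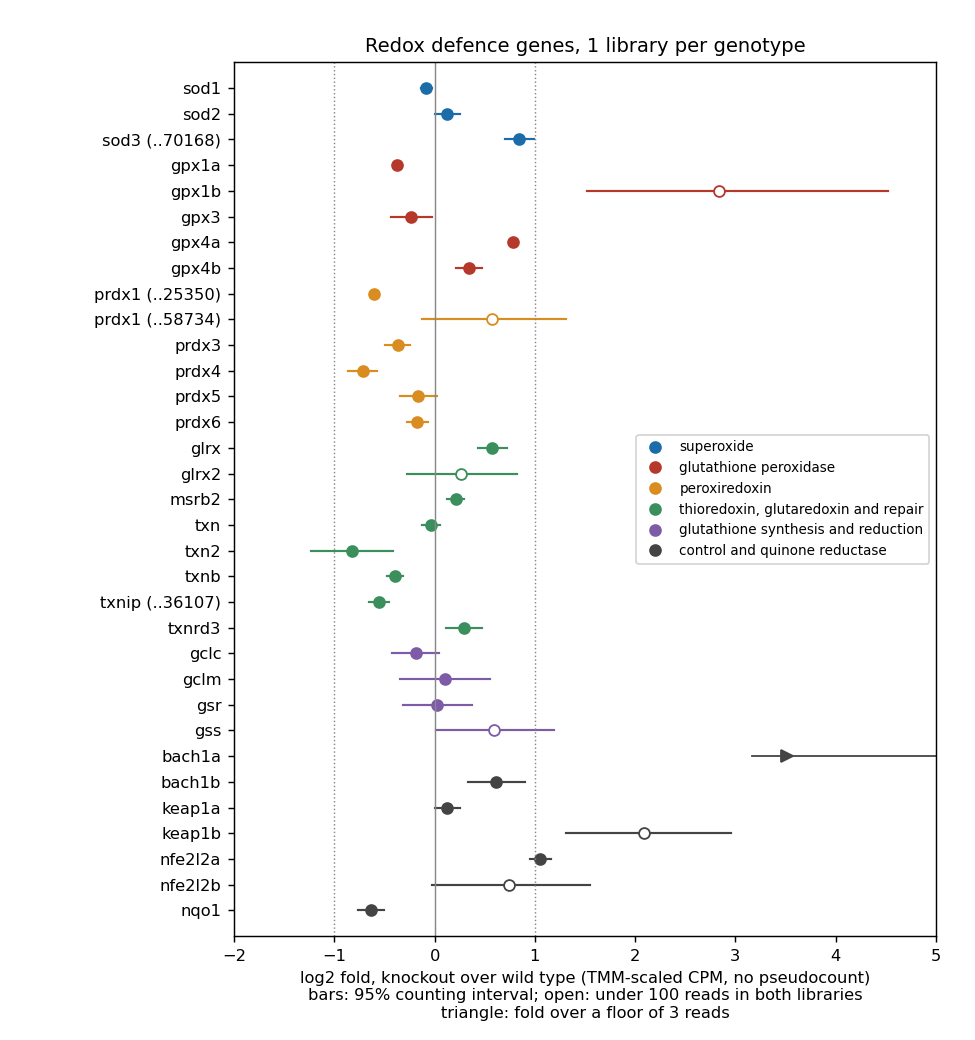
Log2 fold of knockout over wild type for the 33 measured genes, without pseudocount, with 95% counting intervals as bars and the role as colour. Open circles have under 100 reads in both libraries and the triangle for bach1a is its fold over a wild-type floor of 3 reads. Dotted lines mark 2-fold. The genes gclc, gclm and gsr lie near 0, while nfe2l2a, keap1b, bach1a and gpx1b lie past the line on the right.

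The median log2 ratio of the measured redox genes was 0.12, beside -0.0026 for all measured genes, and 19 of 33 lay above 0, or 57.6% against 49.8% of all genes. Among genes at 10 CPM or more in a library the members' median was -0.08 over 23 genes and that of all 4555 genes was -0.10. On the TMM scale the sign of the members' median thus depended on the low genes, and the median of all genes was also lower without them. Among genes at 1 CPM or more in both libraries, which leaves out bach1a and gpx1b, 17 of 31 members lay above 0 with a median of 0.086, beside 48.3% and -0.021 for all 9950 such genes. Within 1.5-fold lay 23 of 33 members, or 69.7%, against 66.7% of all measured genes. The counting interval of the fold lay above 1 for 14 of the 33 members and below it for 11, beside 27.2% and 29.6% of all measured genes. With library totals it lay above 1 for 18 and below for 7, beside 40.8% and 19.0%. These intervals narrow as reads grow, so the shares also follow the depth of a gene.

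The redox genes were led by 1 transcript in both libraries. The gene gpx4a gave 36.5% of all their reads in wild type against 53.8% in the knockout. Summed over the 40 genes, expression was 5226 CPM in wild type against 6078 CPM in the knockout. Without gpx4a the sums were 3320 and 2809 CPM, so on the TMM scale the order of the libraries turned on this gene. In deposited FPKM, which are per gene length, the sum without gpx4a was 2917 in wild type against 2840 in the knockout. As a share of library reads the order did not turn, since the members without gpx4a took 0.304% in wild type against 0.307% in the knockout.

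**Figure D2:**
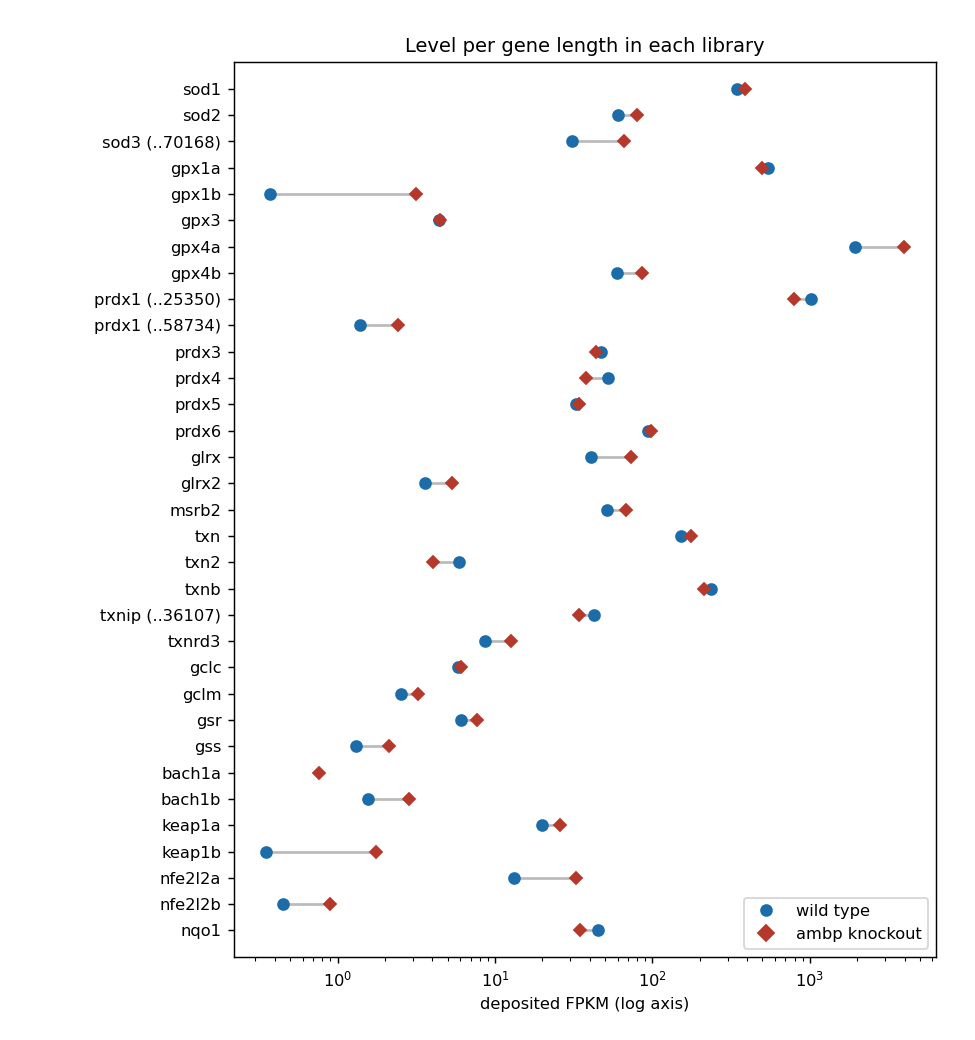
Deposited FPKM of the 33 measured genes in wild type (circles) and knockout (diamonds) on a log axis. Levels run from under 1 FPKM for keap1b, nfe2l2b and gpx1b in wild type to 3968 FPKM for gpx4a in the knockout. The gene bach1a has no wild-type symbol because it is listed at 0 there.

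Nrf2 was the control gene past 2-fold with the most reads. The gene nfe2l2a had 984 reads in wild type against 2858 in the knockout, which is 68.6 CPM (64.4 to 73.0) and 143 CPM (137 to 148). The knockout level was 2.08-fold higher (1.93 to 2.24), a log2 ratio of 1.04, so its counting interval reached below 2-fold. The second copy, nfe2l2b, had 21 and 49 reads, or 1.46 and 2.44 CPM, and its fold of 1.67 had an interval of 0.983 to 2.93. Per gene length nfe2l2a stood at 13.3 FPKM in wild type against 32.9 FPKM in the knockout, and nfe2l2b at 0.45 and 0.89 FPKM, so the a copy carried nearly all Nrf2 transcript in both libraries.

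Keap1, the adaptor that targets Nrf2 for degradation, differed between its copies. The main copy keap1a had 896 and 1367 reads, or 62.5 and 68.2 CPM, with a log2 ratio of 0.12. The minor copy keap1b had 16 and 95 reads, or 1.12 and 4.74 CPM, a 4.25-fold difference (2.49 to 7.73). Per gene length keap1a was at 19.95 and 25.96 FPKM and keap1b at 0.35 and 1.76 FPKM. The larger fold was that of keap1b, a copy with few reads, while the abundant keap1a had a fold of 1.09 (1.003 to 1.189) and the larger difference in level.

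Bach1, which competes with Nrf2 at its DNA elements, was higher in both copies in the knockout library. The copy bach1b had 151 and 323 reads, or 10.5 and 16.1 CPM, and was 1.53-fold higher (1.26 to 1.87). The copy bach1a had 0 reads in wild type against 48 in the knockout, or 2.39 CPM. With the wild-type level set at a floor of 3 reads the difference came to 11.4-fold, and the counting interval of the fold had its lower end at 8.96. It passed the filter through the knockout only. The other 5 control genes reached 1 CPM in both libraries, with a median log2 ratio of 0.57. All 5 lay above 0 under TMM, library totals, DESeq2 size factors and totals without the 20 most counted genes. Of all 9950 such genes 48.3%, 64.5%, 47.4% and 61.9% lay above 0 under these scalings, in that order. Of the 4 control genes that reached 1 FPKM in a library, all lay above 0 in FPKM as well, where the median of all genes was 0.19. Of these, keap1b reached 1 FPKM in the knockout only, at 0.35 and 1.76 FPKM, so its sign followed from the filter. The summed levels of macrophage, neutrophil and exocrine pancreas markers were also higher in the knockout library, as given above. Above 0 in log2 ratio lay 16 of 17 measured macrophage markers, 4 of 6 neutrophil markers and 18 of 18 exocrine pancreas markers. The share of all measured genes above 0 was 49.8%. Of these markers 2, 3 and 3, in that order, reached 1 CPM in 1 library only. The part of these cell types in the higher nfe2l2a, keap1b, bach1a and gpx1b was not tested.

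Some ratios between genes within a library do not depend on how the libraries are scaled; these were chosen after their values were seen. Reads of nfe2l2a per read of keap1a were 1.098 (1.002 to 1.204) in wild type against 2.09 (1.96 to 2.23) in the knockout. Reads of nfe2l2a per read of bach1b were 6.52 (5.49 to 7.79) and 8.85 (7.88 to 9.96). Reads of nfe2l2a were thus higher relative to keap1a by 1.90-fold and relative to bach1b by 1.36-fold. The second ratio leaves out bach1a, at 0 and 48 reads. Both bach1 copies together had 151 and 371 reads, beside 984 and 2858 of nfe2l2a, so the difference against all bach1 reads was smaller. No interval was made for that ratio.

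The quinone reductase nqo1, a widely used Nrf2 target that reduces quinones without releasing radicals, went the other way. It had 1060 reads in wild type against 954 in the knockout, or 73.9 CPM (69.5 to 78.5) and 47.6 CPM (44.6 to 50.7). Its wild-type level was 1.55-fold the knockout level (1.42 to 1.70), a log2 ratio of -0.62, which did not pass the 2-fold rule. With library totals and in FPKM its log2 ratio was -0.37, so the size of the difference depended on the scaling. Reads of nfe2l2a per read of nqo1, a ratio chosen after its values were seen, were 0.928 in wild type against 2.996 in the knockout.

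Glutathione peroxidases, which reduce peroxides with glutathione, held the most abundant member. The gene gpx4a, whose product acts on lipid hydroperoxides in membranes, had 27348 and 65525 reads, or 1907 CPM (1884 to 1929) and 3269 CPM (3244 to 3294). It was 1.71-fold higher in the knockout (1.69 to 1.74), with a log2 ratio of 0.78, short of the 2-fold rule. With library totals its log2 ratio was 1.03 and in FPKM 1.04, so its place against the threshold depended on the scaling. By FPKM it ranked 56 of all genes in wild type against 24 in the knockout.

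Its copy gpx4b had 755 and 1340 reads, or 52.6 and 66.9 CPM, and was 1.27-fold higher (1.16 to 1.39). The cytosolic peroxidase gpx1a, second in the family at 540 and 498 FPKM, had 8412 and 9096 reads, or 586 and 454 CPM. Its log2 ratio was -0.37, or -0.12 with library totals. Reads of gpx4a per read of gpx1a were 3.25 (3.17 to 3.33) in wild type against 7.20 (7.05 to 7.36) in the knockout. The lipid hydroperoxide form thus stood higher against the cytosolic form in the knockout, whatever the scaling. This pair too was chosen after its values were seen.

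The minor copy gpx1b had 5 reads in wild type against 50 in the knockout, or 0.349 and 2.49 CPM, a 7.16-fold difference (2.87 to 23.0). The secreted plasma form gpx3 had 359 and 427 reads, or 25.0 and 21.3 CPM, with a log2 ratio of -0.22 that became 0.02 with library totals. The endoplasmic reticulum forms were not measured, with gpx7 at 0 and 1 reads and gpx8 at 12 and 16 reads. Of the 4 glutathione peroxidases at 1 CPM or more in both libraries, which leaves out gpx1b, 2 lay above 0, with a median log2 ratio of 0.058. Of all such genes 48.3% lay above 0, with a median of -0.021.

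Peroxiredoxins, which reduce peroxides through a reactive cysteine, were mostly lower in the knockout library but never past 2-fold. The most abundant was prdx1 (ENSDARG00000025350), with 16141 and 14834 reads, or 1125 CPM (1108 to 1143) and 740 CPM (728 to 752). Its wild-type level was 1.52-fold that of the knockout (1.49 to 1.56), and it stood at 1012 and 794 FPKM. The log2 ratio of this gene was -0.60, or -0.35 with library totals. The other prdx1 gene (ENSDARG00000058734) had 26 and 54 reads, or 1.81 and 2.69 CPM, and a fold of 1.49 with an interval of 0.915 to 2.47. Erythroid markers, which were lower in the knockout library, moved with the abundant prdx1 gene, and their part in its difference was not tested.

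The endoplasmic reticulum form prdx4 had 843 and 717 reads, or 58.8 CPM (54.9 to 62.9) and 35.8 CPM (33.2 to 38.5), a log2 ratio of -0.70. The mitochondrial form prdx3 had 969 and 1049 reads, or 67.6 and 52.3 CPM, a log2 ratio of -0.36. With library totals the log2 ratios were -0.45 for prdx4 and -0.11 for prdx3. The remaining forms were close to level, with prdx5 at 30.5 and 27.2 CPM and prdx6, second by FPKM, at 96.6 and 85.8 CPM. The median over the 6 genes was -0.27, with 5 below 0; with library totals it was -0.015 and 3 were below 0, while 5 of 6 still lay below the median of all genes, which that scaling put at 0.22.

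**Figure D3:**
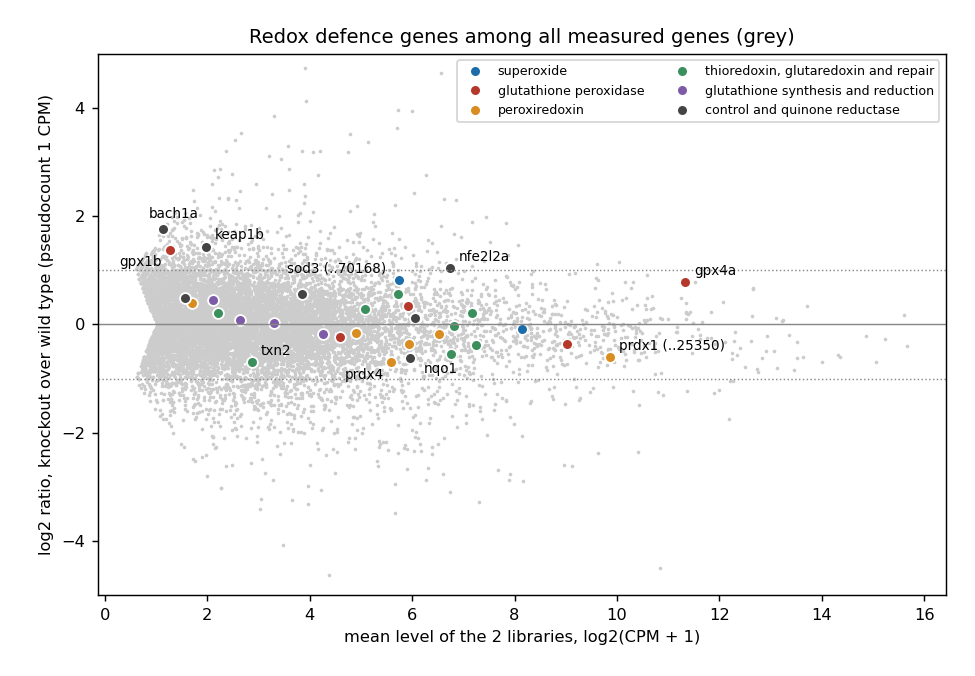
Log2 ratio of knockout over wild type with 1 CPM added, against the mean level of both libraries, for all 11634 measured genes (grey) and the 33 redox genes (coloured by role). Dotted lines mark 2-fold. At the high end gpx4a lies above 0 and the abundant prdx1 gene below it. The genes keap1b, bach1a and gpx1b sit at the low end. Past 2-fold in either direction were 11.8% of all measured genes and 14.5% of those at 10 CPM or more in a library.

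Superoxide dismutases differed by form. The cytosolic sod1, at 344 and 388 FPKM the most abundant, had 4165 and 5503 reads, or 290 and 275 CPM, and its log2 ratio of -0.08 became 0.17 with library totals. The mitochondrial sod2 had 910 and 1390 reads, or 63.4 and 69.3 CPM, a log2 ratio of 0.13. The extracellular form sod3 (ENSDARG00000070168) had 540 and 1357 reads, or 37.6 CPM (34.5 to 41.0) and 67.7 CPM (64.1 to 71.4), and was 1.80-fold higher (1.63 to 1.99). Its log2 ratio was 0.83, or 1.08 with library totals. Reads of this sod3 gene per read of sod1 were 0.130 in wild type against 0.247 in the knockout. That ratio was chosen after its values were seen. The other sod3 gene (ENSDARG00000079183) had 7 reads in wild type against 0 in the knockout and was not measured.

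Cytosolic thioredoxin, the small electron carrier for peroxiredoxins, differed between its copies, with txnb lower in the knockout library and txn close to level. The copy txnb had 2452 and 2615 reads, or 171 and 130 CPM, a log2 ratio of -0.39 and a wild-type level 1.31-fold that of the knockout (1.24 to 1.39). The copy txn had 1627 and 2216 reads, or 113 and 111 CPM, a log2 ratio of -0.04 that became 0.21 with library totals. They were also the most abundant of their group, at 234 and 213 FPKM for txnb and 152 and 176 FPKM for txn. The mitochondrial thioredoxin txn2 had 115 and 91 reads, or 8.02 CPM (6.62 to 9.62) and 4.54 CPM (3.66 to 5.57), a log2 ratio of -0.70. The binding protein gene txnip (ENSDARG00000036107), whose product inhibits thioredoxin, had 1822 and 1734 reads, or 127 and 86.5 CPM, a log2 ratio of -0.55. With library totals the log2 ratios were -0.14 for txnb, -0.49 for txn2 and -0.30 for this txnip gene.

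The reductase txnrd3 had 422 and 722 reads, or 29.4 and 36.0 CPM, and was 1.22-fold higher (1.08 to 1.38). The glutaredoxin glrx, which removes glutathione from proteins, had 595 and 1240 reads, or 41.5 CPM (38.2 to 45.0) and 61.9 CPM (58.5 to 65.4), a log2 ratio of 0.57. Its mitochondrial relative glrx2 had 47 and 79 reads, and the methionine sulfoxide reductase msrb2 had 1912 and 3091 reads, or 133 and 154 CPM; both had a log2 ratio of 0.21. Unmeasured were both txnrd2 genes, at most 9 reads, the second txnip gene (ENSDARG00000070000), with 11 and 6 reads, and srxn1, which repairs overoxidised peroxiredoxins and had 3 reads in each library. The group's 8 measured genes split evenly, with 4 above 0 and 4 below, and none passed 2-fold.

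Of the glutathione synthesis and recycling genes, gclc, gclm and gsr were nearly level, and gss was higher in the knockout library on few reads. The catalytic subunit of glutamate-cysteine ligase, gclc, had 276 and 339 reads, or 19.2 and 16.9 CPM, a log2 ratio of -0.18 that became 0.06 with library totals, and its modifier gclm had 72 and 108 reads, or 5.02 and 5.39 CPM. Glutathione synthetase, gss, had 38 and 80 reads, or 2.65 and 3.99 CPM, a fold of 1.51 (1.01 to 2.28). Glutathione reductase, gsr, had 125 and 178 reads, or 8.72 and 8.88 CPM. All 4 lay within 1.5-fold by log2 ratio, with values from -0.18 to 0.45 and a median of 0.06. By FPKM gsr, at 6.10 and 7.65, and gclc, at 5.79 and 6.06, were the most abundant of the 4. The ligase subunits are Nrf2 targets, and neither passed 2-fold.

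Grouped by where their products act, a grouping made after the values were seen, the redox genes lay on both sides of 0 in each compartment with more than 1 measured gene. Of 6 measured mitochondrial genes 3 lay above 0, and their summed level was 306 CPM in wild type against 312 CPM in the knockout. The 9 cytosolic genes summed to 2427 and 1862 CPM, with the abundant prdx1 gene and gpx1a as the main part of that gap. The secreted genes, sod3 and gpx3, summed to 63.2 and 89.0 CPM. The grouping leaves 17 of the 40 genes unassigned, 15 of them measured, among them gpx4a, gpx4b, the abundant txnip gene and all control genes, so these sums leave out the most abundant member.

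Gene copies were set against each other within each library, which needs no scaling between libraries. The share of keap1b among keap1 reads was 1.75% (exact binomial interval 1.01 to 2.83%) in wild type against 6.50% (5.29 to 7.89%) in the knockout. That of bach1a among bach1 reads was 0 of 151 reads in wild type (exact binomial interval up to 2.41%; 1.99% by a floor of 3 reads) and 12.9% (9.70 to 16.8%) in the knockout. The share of gpx1b was 0.0594% (0.0193 to 0.139%) and 0.547% (0.406 to 0.720%). Since bach1a and gpx1b passed the filter through the knockout only, their shares are no separate support for a difference.

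Other pairs shifted less or the opposite way. The share of gpx4b was lower in the knockout, at 2.69% (2.50 to 2.88%) and 2.004% (1.90 to 2.11%). The share of txn was 39.9% (38.4 to 41.4%) and 45.9% (44.5 to 47.3%), the only pair with copies of like abundance. The minor prdx1 gene took 0.161% and 0.363% of its pair. The minor sod3 gene took 1.28% in wild type and 0 of 1357 reads in the knockout, with an exact binomial interval up to 0.271%, or 0.221% by a floor of 3 reads. For nfe2l2b, at 2.09% (1.30 to 3.18%) and 1.69% (1.25 to 2.22%), and for the minor txnip gene, at 0.600% and 0.345%, the intervals overlapped. The order of the copies was the same in both libraries for every pair.

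**Figure D4:**
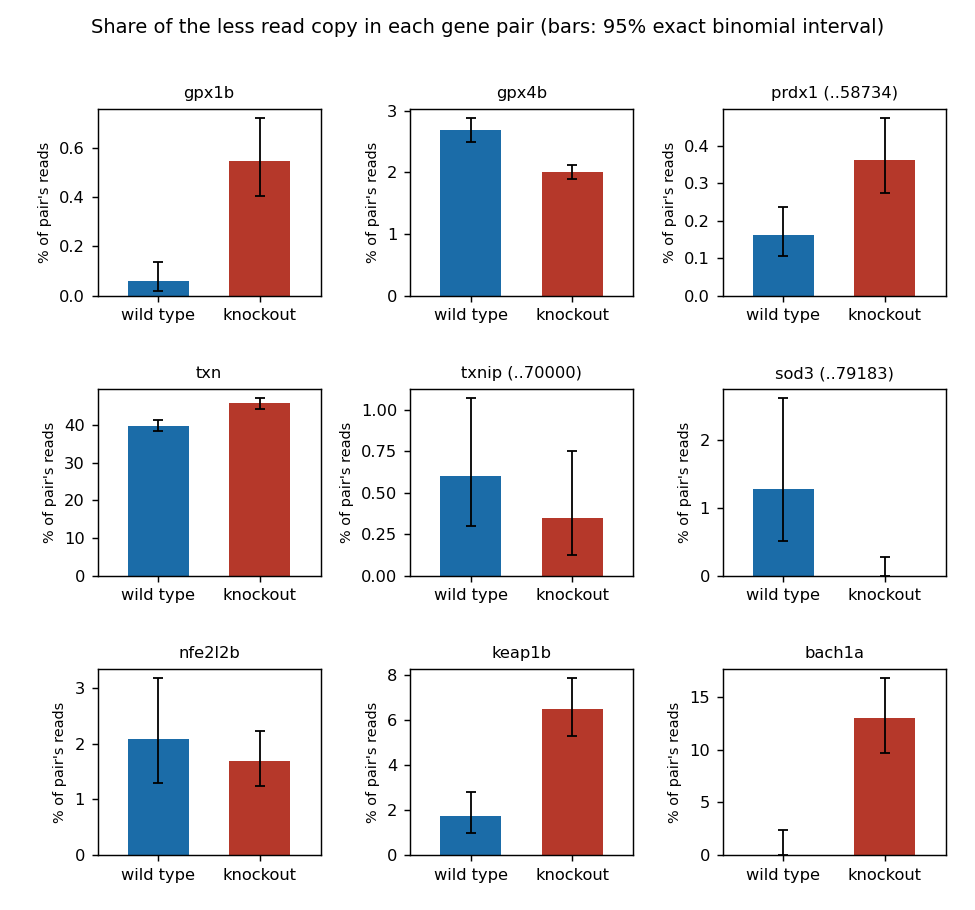
Percentage of a gene pair's reads that came from its less read copy, in wild type and knockout, with exact 95% binomial intervals; each panel has its own axis from 0. The copies keap1b, bach1a and gpx1b take larger shares in the knockout, gpx4b a smaller one, and the intervals of nfe2l2b and of the minor txnip gene overlap. Of these, bach1a and gpx1b passed the filter through the knockout only.

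Nrf2 targets other than the genes above were spread around 0. Of 28 measured genes from this list 14 lay above 0, with a median log2 ratio of 0.005. None was 2-fold higher and 3 were 2-fold lower, beside 5.40% and 6.40% of all measured genes. The same shares stand beside each related list below. The lower genes of this list were hmox1, gsta.1 and gsta.2. Heme oxygenase, hmox1, which breaks down heme and answers both Nrf2 and Bach1, had 4089 reads in wild type against 566 in the knockout, or 285 and 28.2 CPM, a log2 ratio of -3.29. The glutathione transferase gsta.1 had 2699 and 1503 reads, or 188 and 75.0 CPM, a log2 ratio of -1.32; gsta.2, named after its value was seen, had 128 and 73 reads and a log2 ratio of -1.10. The most abundant of the list by FPKM were the ferritin gene fth1a, at 295 and 287 FPKM with a log2 ratio of -0.30, and the NADPH-producing malic enzyme me1, at 175 and 217 FPKM with a log2 ratio of 0.06. With library totals the regulator gene tp53inp1, named for this change, passed 2-fold higher from a log2 ratio of 0.82, and gsta.2 no longer passed 2-fold lower; hmox1 and gsta.1 passed under each of the 4 scalings and in FPKM.

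Partners and regulators of Nrf2 were also near level. Of 18 measured genes 12 lay above 0, none was 2-fold higher and 1 was 2-fold lower, with a median of 0.08. The ubiquitin ligase subunit gene fbxw11a had 406 and 237 reads, or 28.3 and 11.8 CPM, a log2 ratio of -1.19. The gene park7, whose product protects against oxidants, had 872 and 730 reads, or 60.8 and 36.4 CPM, a log2 ratio of -0.72. The adaptor sqstm1, which binds Keap1, had 751 and 1060 reads and was level at 52.4 and 52.9 CPM. With library totals fbxw11a no longer passed 2-fold lower, and the related factor gene nfe2l1b, named for this change, passed 2-fold higher on 29 and 93 reads.

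Among other peroxide, sulfoxide and glutathione enzymes 15 of 31 measured genes lay above 0, none was 2-fold higher and 2 were 2-fold lower, with a median of -0.0086. Catalase, cat, which splits peroxide in peroxisomes, had 32200 and 59538 reads, or 2245 and 2970 CPM, a log2 ratio of 0.40. The glutathione-degrading enzyme chac1 had 6561 and 2189 reads, or 457 and 109 CPM, a log2 ratio of -2.06. The protein disulfide isomerase p4hb, which helps to form disulfides in the endoplasmic reticulum, had 14743 and 9138 reads, or 1028 and 456 CPM, a log2 ratio of -1.17. With library totals p4hb no longer passed 2-fold lower, and the peptidase gene cndp2, named for this change, passed 2-fold higher on 162 and 408 reads.

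**Figure D5:**
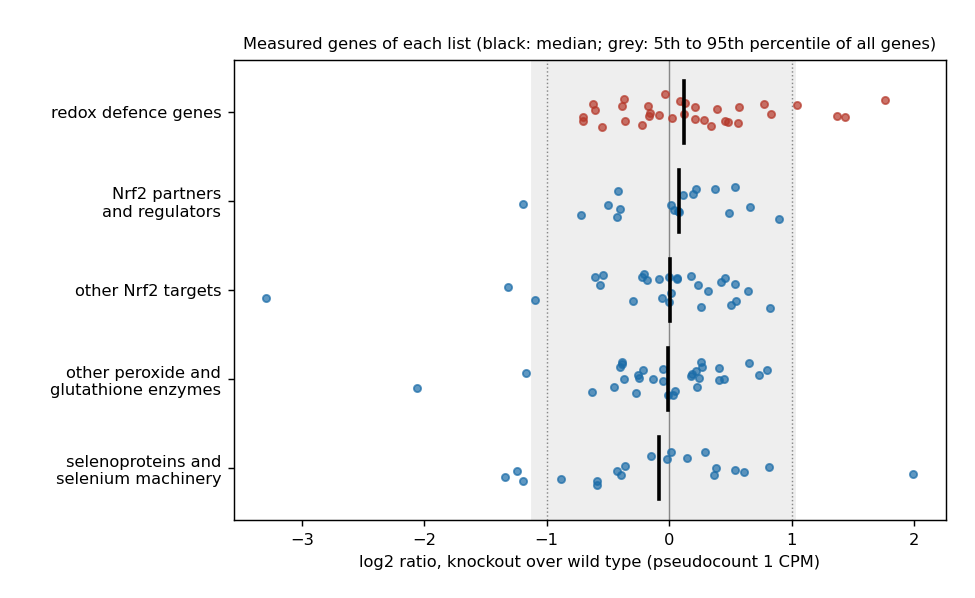
Log2 ratio of knockout over wild type with 1 CPM added for each measured redox gene (red) and for the genes of the related lists (blue), with the list median in black. The grey band runs from the 5th to the 95th percentile of all measured genes, -1.12 to 1.03, and dotted lines mark 2-fold. The medians lie close to 0, and hmox1 at -3.29 and chac1 at -2.06 lie furthest to the left.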

How the data were processed

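Poly(A) RNA from liver was sequenced after TRIzol extraction and oligo(dT) enrichment with a NEBNext Ultra kit, per the labels' protocols. The submitters' processing notes name HISAT2, featureCounts and GRCz11, with no version; the strand setting is not stated there. The authors deposited estimated counts, not whole for 5.45% of genes in wild type against 6.01% in the knockout, and FPKM, per the file headers. For 30 of the 32 measured members with FPKM above 0 in both libraries, the gene length implied by count and FPKM agreed within 5%.

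Estimated counts were rounded. CPM used TMM factors (wild type 0.916, knockout 1.09; edgeR 4.0.16, R 4.3.3); DESeq2 1.42.0 gave the alternative size factors. No test was run. Log2 ratios added 1 CPM; folds did not. Genes needed 1 CPM in either library. Ratio intervals are exact conditional binomial (Clopper-Pearson), level intervals exact Poisson. Symbols came from an Ensembl table for 23499 of 25939 genes, and the deposited symbol belonged to the same family for 39 of 40 members. The exception, gpx3, had none. All members were named; from each related list the 2 genes with most FPKM and the 2 with the largest ratio on at least 100 reads. List names were also matched without their copy suffix. Ratios and intervals were tested on simulated data with counting error only and the scaling held fixed. No variation between fish or libraries entered that check. Members and lists were chosen with earlier results of these data known. Alternatives were other scalings, pseudocounts, filters, thresholds, FPKM and listed symbols only.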

Additional observations from a re-analysis of the deposited data

How the results depend on the processing

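No paired analysis was possible because each genotype had 1 library. The members past 2-fold higher numbered 4 of 33 in the main setting, beside 5.40% of all measured genes, and 1 of 33 with a pseudocount of 5 CPM. With the 10 CPM filter they numbered 1 of 23, beside 4.98% of all such genes. With 1 CPM required in both libraries they numbered 2 of 31, where 9.82% of all genes were past 2-fold in either direction. With FPKM they numbered 5 of 31, where that share was 10.6%. With listed symbols only they numbered 3 of 31. With at least 100 reads in a library, a setting chosen after seeing the data, 1 of 26 was higher. Fewer genes are tested by construction under the filters. The members past the threshold lower numbered 0 and became 4 of 33 at 1.5-fold, beside 16.9% of all measured genes. At 1.5-fold 6 of 33 members were higher, beside 16.4% of all measured genes. The members' median log2 ratio of 0.12 was 0.37 with library totals, 0.33 without the 20 most counted genes, 0.28 with FPKM and -0.081 with the 10 CPM filter, where all genes had 0.22, 0.19, 0.19 and -0.10. The main value of -4.50 for ambp became -4.25 with library totals and with FPKM, and -4.29 when the top genes were left out. Of all genes 21.4% were past 2-fold with a pseudocount of 0.1 CPM, 4.04% with 5 CPM and 7.14% with no filter, and 33.3% were past 1.5-fold, against 11.8%. With library totals, gpx4a and sod3 also passed 2-fold, and 6 members changed sign, as 6 did with FPKM and 5 without the top genes. With DESeq2 size factors no member changed sign. Only nfe2l2a passed 2-fold in all settings; under a pseudocount of 5 CPM its log2 ratio was 1.004. Low read numbers limit keap1b, bach1a, gpx1b, gss, nfe2l2b, glrx2 and the minor prdx1 gene. The cause was not tested where no construction gives it.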

Other observations

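Glutathione peroxidases 1, 3 and 4 and the thioredoxin reductases carry selenocysteine, so the other selenoproteins and the genes that make and insert this residue are set beside them here. Of 20 measured genes in that list 9 lay above 0, with a median log2 ratio of -0.08. In the knockout library 1 was 2-fold higher and 3 were 2-fold lower, beside 5.40% and 6.40% of all measured genes. Selenoprotein P, which carries selenium out of the liver, had its main gene selenop at 19182 and 38868 reads, or 1337 and 1939 CPM, a log2 ratio of 0.54. The second form selenop2 had 986 reads in wild type against 5551 in the knockout, or 68.7 and 277 CPM, and was 4.03-fold higher (3.76 to 4.32). The thyroid hormone deiodinase dio2 had 8178 and 4996 reads, or 570 and 249 CPM, a log2 ratio of -1.19.

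Genes for a factor that associates with the selenocysteine tRNA were the other lower members. The gene trnau1ap (ENSDARG00000101323) had 628 and 334 reads, or 43.8 and 16.7 CPM, a log2 ratio of -1.34. Its relative trnau1apb, named after its value was seen, had 572 and 326 reads and a log2 ratio of -1.24. With library totals dio2 no longer passed 2-fold lower and secisbp2, which helps to read the selenocysteine codon and was named for this change, passed 2-fold higher on 59 and 160 reads. Of the 5 selenoproteins among the redox genes at 1 CPM or more in both libraries, 3 lay above 0, or 4 with library totals. Of all such genes 48.3% lay above 0, or 64.5% with library totals.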
